A study of Mus musculus with 8 samples.

Results

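The 10 genes described here, Klf2, Klf3, Klf4, Klf5, Klf6, Klf9, Klf10, Klf11, Klf13 and Klf15, encode Kruppel-like factors. They were picked out by gene name, with earlier results of these data known, from the 54532 genes of a deposited expression table of mouse brown adipose tissue. The table held 4 wild-type mice (genotype label WT) and 4 transgenic mice (genotype label TG), which the design text calls CLCF1-ATG. The transgene is named for CLCF1, an interleukin-6 family cytokine. The mice were numbered 1, 2, 3 and 5 in each group. The sources used here do not give age, sex, strain, diet, the promoter that drives the transgene or whether mice were littermates.

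Kruppel-like factors are transcription factors that bind GC-rich and CACCC-containing DNA through C2H2 zinc fingers at the C-terminal end of the protein. In cell culture models of fat formation some members promote the differentiation of adipocytes, among them KLF4, KLF5, KLF6, KLF9 and KLF15, and others, such as KLF2 and KLF3, restrain it. Outside the adipocyte, KLF2 and KLF4 are known from endothelial cells, KLF10 and KLF11 from the response to TGF-beta, KLF9 and KLF15 from the response to glucocorticoids, and KLF13 from lymphocytes.

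Promoter sequences are shown for the 6 members whose levels differed between the genotypes, because family members are known to bind GC and CACCC boxes and can act on promoters of their own family. RefSeq promoters (GRCm38.p6) were matched for 8 of the 10 members; Klf5 and Klf10 had no entry. The sequences below run 5′ to 3′ on the gene's strand through the 250 bases before the annotated start, and the Klf2 and Klf6 sequences end where the gene of the deposited table begins. Capitals mark each GC box (GGGCGG) or CACCC box (GGGTGG), read on either strand and allowed to overlap, and in Klf9, where neither box was found, they mark a match to the STAT element TTCNNNGAA. Klf15 lies at chr6:90462326-90462575 on the plus strand, Klf13 at chr7:63938916-63939165 on the minus strand, Klf9 at chr19:23140976-23141225 on the plus strand, Klf2 at chr8:72318812-72319032 on the plus strand, Klf6 at chr13:5861239-5861481 on the plus strand and Klf4 at chr4:55532476-55532725 on the minus strand.
Klf15: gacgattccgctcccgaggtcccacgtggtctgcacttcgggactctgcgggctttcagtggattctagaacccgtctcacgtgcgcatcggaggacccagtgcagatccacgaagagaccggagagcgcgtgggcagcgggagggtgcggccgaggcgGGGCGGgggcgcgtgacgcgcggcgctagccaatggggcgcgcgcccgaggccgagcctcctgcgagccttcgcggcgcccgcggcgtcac
Klf13: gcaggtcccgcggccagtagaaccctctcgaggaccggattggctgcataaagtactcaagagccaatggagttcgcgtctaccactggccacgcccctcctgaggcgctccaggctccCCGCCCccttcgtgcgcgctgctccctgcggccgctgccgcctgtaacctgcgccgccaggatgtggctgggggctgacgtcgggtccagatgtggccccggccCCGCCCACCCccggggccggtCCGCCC
Klf9: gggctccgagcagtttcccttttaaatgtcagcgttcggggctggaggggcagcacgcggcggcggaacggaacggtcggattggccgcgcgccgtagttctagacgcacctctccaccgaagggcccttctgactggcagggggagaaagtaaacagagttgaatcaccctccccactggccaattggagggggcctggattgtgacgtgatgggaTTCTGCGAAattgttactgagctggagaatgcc
Klf2: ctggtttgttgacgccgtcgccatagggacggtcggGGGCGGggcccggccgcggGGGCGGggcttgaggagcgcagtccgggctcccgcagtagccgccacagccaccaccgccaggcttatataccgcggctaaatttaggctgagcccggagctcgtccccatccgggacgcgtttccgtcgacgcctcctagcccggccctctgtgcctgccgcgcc
Klf6: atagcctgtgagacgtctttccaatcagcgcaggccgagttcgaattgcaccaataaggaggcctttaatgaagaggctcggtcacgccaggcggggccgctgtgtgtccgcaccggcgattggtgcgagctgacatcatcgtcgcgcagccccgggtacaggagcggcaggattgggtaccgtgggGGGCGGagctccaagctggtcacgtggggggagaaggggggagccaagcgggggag
Klf4: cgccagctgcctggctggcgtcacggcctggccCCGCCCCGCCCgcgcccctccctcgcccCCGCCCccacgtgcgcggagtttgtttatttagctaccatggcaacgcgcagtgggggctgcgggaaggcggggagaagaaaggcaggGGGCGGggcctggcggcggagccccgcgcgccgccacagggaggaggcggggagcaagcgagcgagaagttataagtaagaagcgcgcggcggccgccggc

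The GC box occurred in 7 of the 8 matched member promoters, Klf9 being without it, against 32.7% of 32851 RefSeq promoters of the same length. The CACCC box occurred in 3 of the 8 (Klf2, Klf3 and Klf13), against 28.1%. In Klf2 and Klf3 it lay only in bases inside the gene of the deposited table, so the Klf2 sequence above shows none. GC content ran from 59.6% in Klf9 to 78.4% in Klf3, against a median of 52.4% over all promoters. The part of base composition was not tested for the GC box or for any other count of this paragraph. The E-box CACGTG was found in 4 of 8 (Klf4, Klf6, Klf11 and Klf15), against 6.02% of all promoters, and Klf15 held it 2 times. The cAMP response core TGACG was found in 5 of 8 (Klf2, Klf4, Klf9, Klf13 and Klf15), against 17.8%, and the whole element TGACGTCA in 0 of 8, against 1.55%. The STAT element occurred only in Klf9, at bases 33 to 25 before the start, against 7.02%, and the glucocorticoid receptor core TGTTCT and the serum response element in 0 of 8, against 16.1% and 1.47%. All of these were searched on both strands. Both the 3 members that were higher and the 3 that were lower in TG thus included promoters with and without the E-box, and a match in these letters is not a binding site.

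Levels are FPKM, fragment counts corrected by the authors for gene length and library, and values after ± are SDs over the 4 mice of a group. Gene positions were taken from the deposited table and refer to mm10. A log2 change compares log2(FPKM + 1) between the groups, with positive values where TG was higher. It was tested with limma over 12508 genes, those with 0.5 FPKM or more in no fewer than 4 libraries, and p was adjusted by Benjamini-Hochberg over all of them. A WT library held 13734231 to 15751302 recovered reads, 4751 to 7737 of them from the 10 members, and a TG library 18494022 to 20183840, with 9844 to 13606 from the members. Clcf1 checked the labels: WT libraries averaged 2.15 ± 1.28 FPKM and TG libraries 84.5 ± 4.75 FPKM, with no overlap. The brown adipocyte marker Ucp1 was present in both groups (WT 1420 ± 371 FPKM, TG 82.8 ± 45.3 FPKM), and 7 of 8 brown adipocyte markers were lower in TG. The mitochondrial share of the reads was 24.1% to 37.5% in WT and 6.09% to 7.34% in TG. WT 2 and TG 5 stood apart in the summed FPKM of 7 skeletal muscle markers, at 2450 and 1379 against 11.5 to 226 in the other 6 libraries.

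Of the 10 members, 9 were tested and 6 passed an adjusted p of 0.05. Klf15, Klf13 and Klf9 were higher in TG and Klf2, Klf6 and Klf4 were lower. Klf10, Klf3 and Klf11 did not pass, and Klf5 stayed under the filter on low values. Over all genes tested 44.1% passed, 22.3% higher and 21.8% lower, and the count of 6 of 9 is to be read against that share. Among the 347 tested genes that the table assigns to the zf-C2H2 family, to which the members belong, 34.3% passed, 24.5% higher and 9.8% lower. The groups did not overlap in 6 of the 9 tested members, against 42.6% of all tested genes. The median log2 change of the 9 was 0.04, against 0.01 over all genes and 0.14 over the zf-C2H2 genes. The summed FPKM of the 10 members was 141 ± 21.9 in WT and 138 ± 10.8 in TG, and the members that made up most of the sum differed. Without WT 2 and TG 5 the calls again numbered 3 higher and 3 lower. In bulk tissue such as this, fewer cells of a type and less RNA per cell cannot be told apart.

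**Figure D1:**
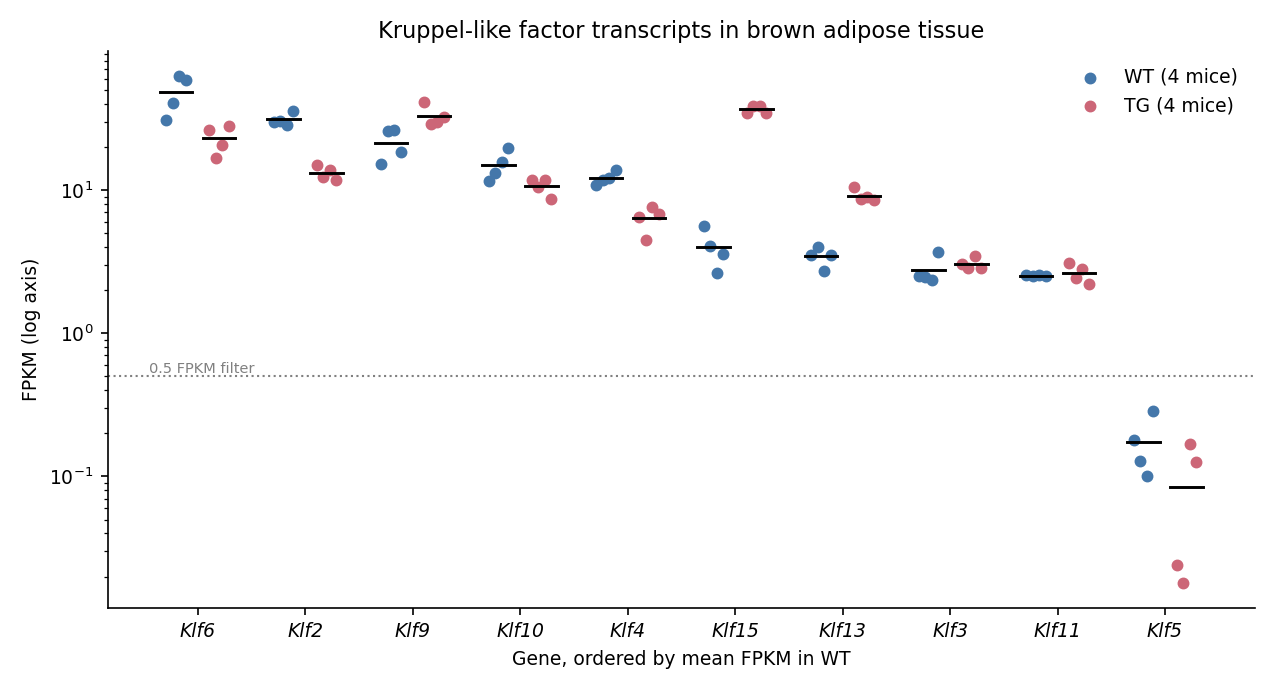
FPKM of the 10 Kruppel-like factors on a log axis, ordered by their mean in WT, with 1 point per mouse (4 WT, 4 TG) and a bar at the group mean. Klf15 stands at 2.64 to 5.66 FPKM in WT and 34.6 to 39.0 FPKM in TG, and every Klf5 value lies under the dotted line at 0.5 FPKM.

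Klf15 showed the largest change of the 10 members. KLF15 is known as a promoter of adipocyte differentiation, as an inducer of the glucose transporter gene Slc2a4, and as a regulator of amino acid breakdown in muscle and liver. Its gene (ENSMUSG00000030087, chromosome 6, 90462576 to 90475238, plus strand) measured 5.66, 4.10, 2.64 and 3.57 FPKM in WT 1, 2, 3 and 5 and 34.7, 38.8, 39.0 and 34.6 FPKM in TG 1, 2, 3 and 5. Every TG library lay far above every WT library, and the TG libraries were close together, with a coefficient of variation of 6.66% against 31.7% in WT. The mean rose from 3.99 ± 1.26 FPKM across WT to 36.8 ± 2.45 FPKM across TG, a ratio of 9.22 and a log2 change of 2.95 with an SE of 0.168 and a 95% interval of 2.57 to 3.33 (adjusted p = 2.51e-06). This was the 39th largest rise among the 12508 tested genes and the largest among the 347 zf-C2H2 genes.

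KLF13 is a family member known from T lymphocytes, where it drives the chemokine gene Ccl5 late after activation. Klf13 (ENSMUSG00000052040, chromosome 7, 63886351 to 63938915, minus strand) measured 3.54, 4.03, 2.72 and 3.50 FPKM in WT 1, 2, 3 and 5 and 10.4, 8.65, 8.90 and 8.48 FPKM in TG 1, 2, 3 and 5. The groups were well apart, with TG 1 the highest library. The mean rose from 3.45 ± 0.542 FPKM across WT to 9.12 ± 0.903 FPKM across TG, a ratio of 2.65 and a log2 change of 1.19 with an SE of 0.120 (adjusted p = 5.50e-05), the third largest rise among the zf-C2H2 genes. Gm27252 and E030018B13Rik overlap Klf13 on the opposite strand at 0 to 1.99 FPKM, and whether the counting used strand is not stated. Of the markers of T or NK cells 3 of 4 tested were higher in TG, where 22.3% of all tested genes were higher, and 3 were under the filter. The count was 1 of 4 without WT 1, WT 2 or WT 3, each in turn, with voom and with the replicate block. It was 1 of 2 without TG 1, TG 2 or TG 3, each in turn, and 2 of 2 without WT 5, as fewer markers then passed the filter. The summed FPKM of the T or NK cell markers was 1.86 to 7.78 in WT and 5.44 to 15.6 in TG. TG 5, the lowest TG library in that sum, had 8.48 FPKM of Klf13 against 8.65 to 10.4 in the other TG libraries. WT 5, at 7.78 in the sum against 5.44 in TG 5, had 3.50 FPKM of Klf13. The part of these cells in the rise of Klf13 was not tested.

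KLF9 is a target of glucocorticoid and thyroid hormone receptors and is known to promote the middle stage of adipocyte differentiation. Klf9 (ENSMUSG00000033863, chromosome 19, 23141226 to 23166911, plus strand) measured 15.1, 25.7, 26.4 and 18.5 FPKM in WT 1, 2, 3 and 5 and 41.1, 28.9, 29.9 and 32.3 FPKM in TG 1, 2, 3 and 5. Mir1192, which overlaps it on the same strand, was listed at 0 in 7 libraries and at 3.98 FPKM in TG 3. The groups of Klf9 did not overlap, but WT 3 at 26.4 and TG 2 at 28.9 were neighbours. The mean rose from 21.4 ± 5.51 FPKM across WT to 33.0 ± 5.54 FPKM across TG, a ratio of 1.54 and a log2 change of 0.62 with an SE of 0.188 (adjusted p = 0.0234). The call ended without TG 1 (log2 change 0.52, adjusted p = 0.0647), without WT 5 (0.57, adjusted p = 0.0525) and with no filter on low values (adjusted p = 0.0601), and the adjusted p ran from 0.00271 to 0.0647 over 24 alternatives.

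Adipocyte markers rose alongside these 3 members: 6 of 8 were higher in TG and none was lower, and their summed FPKM went from 8382 ± 825 to 26517 ± 5015. Cfd, Fabp4 and Adipoq, the most abundant of them, had log2 changes of 2.34, 0.69 and 1.51. Klf15 as a percentage of that sum was 0.0310% to 0.0749% in WT and 0.122% to 0.169% in TG, so Klf15 was higher in TG also relative to the adipocyte markers. The same percentages overlapped between the groups for Klf9, at 0.257 ± 0.0682 in WT and 0.131 ± 0.0488 in TG, and for Klf13, at 0.0415 ± 0.00857 and 0.0358 ± 0.0105. These percentages depend on the most abundant markers, which make up most of the sum. The sum was 3.16 times as high in TG, whereas the median log2 change of the 8 markers was 1.04. Klf9 and Klf13 had log2 changes of 0.62 and 1.19. Of 9 fibroblast or preadipocyte markers 4 were higher and 1 lower, a lower call lost without WT 1, TG 2, TG 3 or TG 5, each in turn, and on division by all recovered reads. Their summed FPKM was 238 to 328 in WT and 645 to 806 in TG. The number of higher markers in this list was 3 without WT 2, WT 3 or TG 1, each in turn, and 5 without WT 5. The part of either cell type's RNA in the rise of Klf15, Klf9 and Klf13 was not tested.

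Among the members that were lower in TG, Klf2 had the largest log2 change, with Klf6 next; without WT 1 the change of Klf6 was at least as large (-1.20, as for Klf2), and without WT 2 and TG 5 together it was larger (-1.17 against -1.13). KLF2 is known to keep endothelial cells and T cells quiescent and to repress Pparg in preadipocytes. Klf2 (ENSMUSG00000055148, chromosome 8, 72319033 to 72321656, plus strand) measured 29.7, 30.5, 28.6 and 35.8 FPKM in WT 1, 2, 3 and 5 and 14.9, 12.5, 13.8 and 11.8 FPKM in TG 1, 2, 3 and 5. The highest TG library was far under the lowest WT library. The mean fell from 31.2 ± 3.16 FPKM across WT to 13.2 ± 1.38 FPKM across TG, with WT 2.35 times as high and a log2 change of -1.18 with an SE of 0.111 and a 95% interval of -1.42 to -0.93 (adjusted p = 3.69e-05).

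KLF4, known as a reprogramming factor, acts early in adipocyte differentiation by inducing Cebpb, and shares many endothelial roles with KLF2. Klf4 (ENSMUSG00000003032, chromosome 4, 55527143 to 55532466, minus strand) measured 10.8, 11.8, 12.1 and 13.7 FPKM in WT 1, 2, 3 and 5 and 6.53, 4.46, 7.64 and 6.83 FPKM in TG 1, 2, 3 and 5. The groups were apart, with TG 2 the lowest library. The mean fell from 12.1 ± 1.21 FPKM across WT to 6.36 ± 1.35 FPKM across TG, a log2 change of -0.85 with an SE of 0.149 (adjusted p = 0.00151).

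KLF6 is known as an early response gene of injured tissue and as a repressor of the preadipocyte gene Dlk1. Klf6 (ENSMUSG00000000078, chromosome 13, 5861482 to 5870394, plus strand) measured 30.7, 40.8, 62.6 and 59.2 FPKM in WT 1, 2, 3 and 5 and 26.5, 16.8, 20.6 and 28.2 FPKM in TG 1, 2, 3 and 5. The WT libraries were widely spread, and WT 1 at 30.7 lay close to TG 5 at 28.2, so the groups were apart by a small margin. The mean fell from 48.3 ± 15.2 FPKM across WT to 23.0 ± 5.28 FPKM across TG, a log2 change of -1.01 with an SE of 0.242 (adjusted p = 0.00788). The call ended on division by all recovered reads, at -0.59 (adjusted p = 0.0593), and on rescaling without the mitochondrial, the haemoglobin and the 20 most abundant genes, at -0.64 (adjusted p = 0.0576); the adjusted p ran from 0.00227 to 0.0593 over 24 alternatives. Under these scalings the median over all tested genes shifted from 0.01 to 0.32 and 0.28, with 5536 higher and 1442 lower or 5287 higher and 1546 lower genes, against 2788 and 2725.

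**Figure D2:**
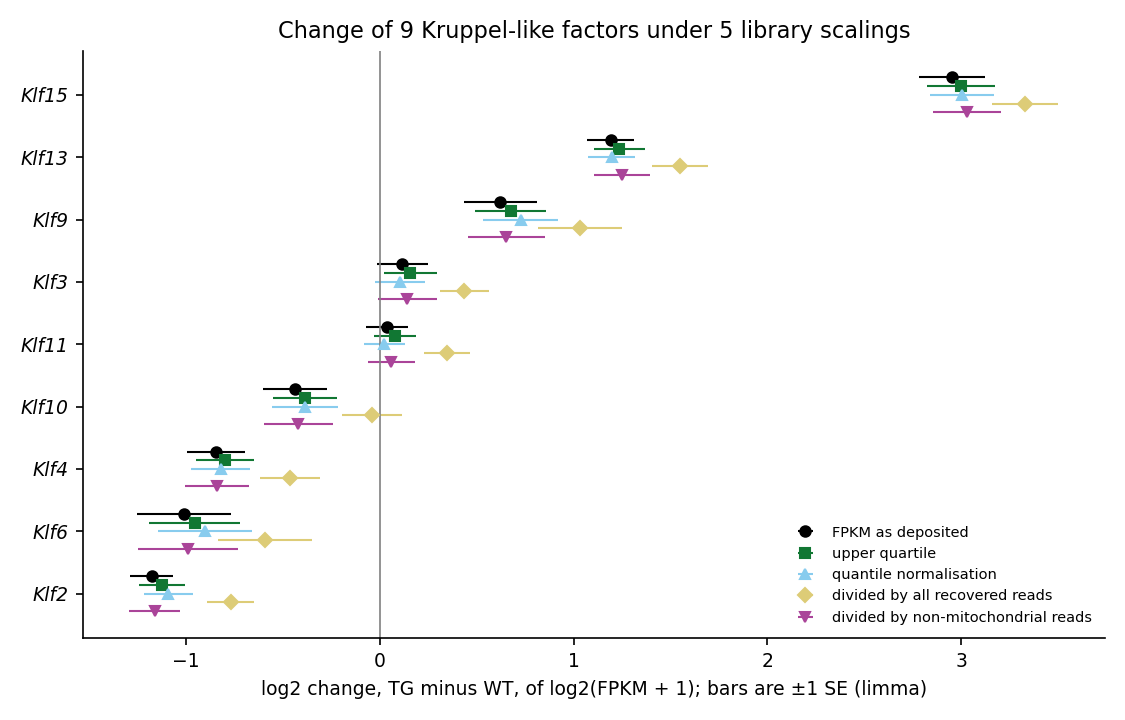
Log2 change (TG minus WT, of log2(FPKM + 1)) of the 9 tested Kruppel-like factors under 5 scalings of the libraries, with bars of 1 SE from limma. Division by all recovered reads shifts every member to the right, and Klf15 (2.95 as deposited) lies farthest right and Klf2 (-1.18) farthest left under each of the 5.

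Endothelial markers fell with Klf2 and Klf4. All 9 endothelial markers were lower in TG, and their summed FPKM was 168, 153, 205 and 343 in WT 1, 2, 3 and 5 and 51.5, 39.3, 29.3 and 48.3 in TG 1, 2, 3 and 5. The sum was 5.16 times as high in WT as in TG, a wider gap than for Klf2 or Klf4. Cldn5, Cdh5 and Esam, the most abundant of them, had log2 changes of -2.76, -1.86 and -1.65. Klf2 as a percentage of the endothelial sum was therefore higher in TG, at 24.4% to 47.1% against 10.4% to 19.9% in WT, and Klf4 likewise, at 11.4% to 26.1% against 4.01% to 7.67%. WT 5 and TG 1 were the highest of their groups both in this sum and in Klf2, and WT 5 also in Klf4. Other libraries did not keep this order. TG 3, the lowest in the sum, had the most Klf4 of the TG libraries, at 7.64 FPKM. WT 2, the lowest WT library in the sum, had more Klf2 than WT 1 and WT 3, at 30.5 FPKM. Pericyte or smooth muscle markers moved the same way as the endothelial markers, 6 of 7 tested being lower and Cspg4 higher. Their summed FPKM was 114 to 147 in WT and 33.6 to 60.2 in TG. Of those 6, Myh11 and Cnn1 passed the filter only through their WT values, and without any 1 WT library 5 markers were tested and 3 or 4 were lower. The part of endothelial RNA in the fall of Klf2 and Klf4 was not tested.

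Immediate early genes are transcripts that rise within minutes of a stimulus or of tissue handling, and Klf2, Klf4, Klf6 and Klf10 are known to respond in the same way. Of 24 such genes 23 were tested, and 12 were lower in TG, 0 higher and 11 not called, with a median log2 change of -1.05, where 21.8% of all tested genes were lower and the median was 0.01. The nuclear receptor gene Nr4a3 had a log2 change of -1.89, Ier2 of -1.45, Maff of -2.41 and Atf3 of -2.87. The summed FPKM of the 24 was 225, 401, 712 and 440 in WT 1, 2, 3 and 5 and 227, 129, 170 and 186 in TG 1, 2, 3 and 5, so WT 1 stood at the level of TG 1. WT 1 was also the WT library with the least Klf6, Klf4 and Klf10. Klf2 did not follow this, being lowest in WT 3, the library with the highest sum, at 28.6 FPKM against 29.7 FPKM in WT 1. Without WT 1 the count of lower genes was 19. Of 7 neutrophil markers 3 were tested and were lower, and their summed FPKM was 12.8, 145, 382 and 126 in WT 1, 2, 3 and 5 and 4.06 to 26.2 in TG, with WT 1 within the TG range and WT 3 highest. S100a9, S100a8 and Csf3r, the most abundant of them, had log2 changes of -3.56, -3.13 and -1.96, and 1 of the 3 was called without TG 2, without TG 3, or without WT 2 and TG 5 together. Their part in the levels of Klf6 and of these genes was not tested. Klf6 as a percentage of the immediate early sum overlapped between the groups, at 11.5 ± 2.42 in WT and 13.0 ± 1.55 in TG, and so did Klf10, at 3.77 ± 1.30 and 6.23 ± 1.62. How the tissue was taken in each group is not given beyond freezing, and its part in these levels was not tested.

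**Figure D3:**
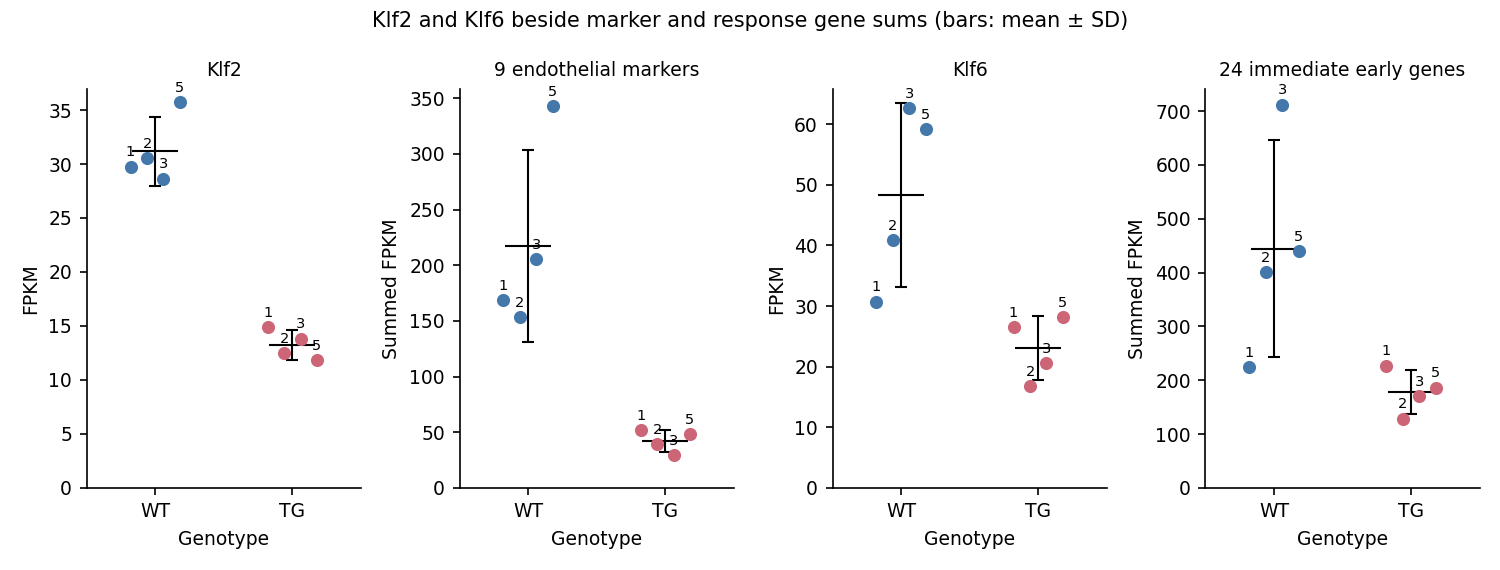
FPKM of Klf2 and Klf6 beside the summed FPKM of 9 endothelial markers and of 24 immediate early genes, 1 point per mouse with its number, and the mean with an SD bar (n = 4). The groups are apart in Klf2, Klf6 and the endothelial sum, and WT 1 (225) overlaps TG in the immediate early sum.

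Klf10, Klf3 and Klf11 did not pass the threshold. KLF10 and KLF11 are known as genes induced early by TGF-beta, and KLF10 is also under control of the circadian clock. Klf10 (ENSMUSG00000037465, chromosome 15, 38291463 to 38300706, minus strand) measured 11.6, 13.1, 15.7 and 19.5 FPKM in WT 1, 2, 3 and 5 and 11.7, 10.5, 11.7 and 8.66 FPKM in TG 1, 2, 3 and 5. WT 1 lay within the TG range and the other WT libraries above it. The means were 14.97 ± 3.48 and 10.7 ± 1.45 FPKM, with a log2 change of -0.44 (95% interval -0.80 to -0.07, adjusted p = 0.0547). The gene passed without WT 1 (-0.54, adjusted p = 0.0228), with voom on the recovered reads (-0.47, adjusted p = 0.0372), with a filter of 5 FPKM (adjusted p = 0.0419) and among protein-coding genes alone (adjusted p = 0.0481). Over 24 alternatives the log2 change ran from -0.54 to -0.04 and the adjusted p from 0.0228 to 0.844.

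KLF3 is a repressor that works through the corepressor CTBP and is known to hold back adipocyte differentiation. Klf3 (ENSMUSG00000029178, chromosome 5, 64803388 to 64832901, plus strand) measured 2.53, 2.49, 2.34 and 3.71 FPKM in WT 1, 2, 3 and 5 and 3.07, 2.85, 3.46 and 2.84 FPKM in TG 1, 2, 3 and 5. All TG libraries lay above 3 of the WT libraries and below WT 5. C230096K16Rik and Gm20033 overlap Klf3 at no more than 0.838 FPKM. The log2 change was 0.12 (95% interval -0.17 to 0.41, adjusted p = 0.494). Under division by all recovered reads Klf3 passed with 0.44 (adjusted p = 0.0139) and under the rescaling without abundant genes with 0.40 (adjusted p = 0.0394), where the median of all genes was 0.32 and 0.28; the adjusted p ran from 0.0139 to 0.740 over 23 alternatives.

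KLF11 is known from the action of PPAR-gamma ligands in human adipocytes. Klf11 (ENSMUSG00000020653, chromosome 12, 24651274 to 24662789, plus strand) measured 2.54, 2.52, 2.55 and 2.52 FPKM in WT 1, 2, 3 and 5 and 3.12, 2.42, 2.80 and 2.22 FPKM in TG 1, 2, 3 and 5. The TG libraries lay on both sides of the WT libraries. The log2 change was 0.04 (95% interval -0.20 to 0.28, adjusted p = 0.799). It passed only on division by all recovered reads (0.35, adjusted p = 0.0319), close to the median of 0.32 that all genes had there, and its adjusted p ran from 0.0319 to 0.938 over 23 alternatives.

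KLF5 is known to act in early adipocyte differentiation and is abundant in epithelia and smooth muscle. Klf5 (ENSMUSG00000005148, chromosome 14, 99298691 to 99315036, plus strand) was listed at 0.180, 0.129, 0.101 and 0.286 FPKM in WT 1, 2, 3 and 5 and 0.0242, 0.0182, 0.168 and 0.126 FPKM in TG 1, 2, 3 and 5. These values rest on 11, 9, 7 and 17 reads in WT and 3, 2, 20 and 15 reads in TG. TG 1 and TG 2 were low and TG 3 and TG 5 lay within the WT range. With no filter on low values Klf5 did not pass (log2 change -0.11, adjusted p = 0.314). Its coefficient of variation in TG was 88.9%, against 31.6% from counting error alone. The epithelial markers, at most 0.211 FPKM in sum in any library, were close to 0 as well.

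The family can also be read within each library, as the percentage that a member takes of the summed FPKM of all 17 Klf genes of the table, which no scaling of libraries can change. Klf6 was the most abundant member in all 4 WT libraries, with Klf2 next. In TG 2, 3 and 5 Klf15 came first and Klf9 second, and in TG 1 Klf9 came first and Klf15 second, with Klf6 at rank 3 and Klf2 at rank 4 in every TG library. Klf15 took 2.91 ± 1.41% in WT and 26.3 ± 3.43% in TG. Klf2, Klf4 and Klf6 together took 62.9 ± 2.71% in WT and 30.2 ± 3.11% in TG, and Klf9, Klf13 and Klf15 together 20.2 ± 3.68% and 56.1 ± 2.21%; both sets were formed from the calls above, so their direction was fixed by that choice. Klf10, which overlapped between the groups as a level, took 9.48% to 11.9% in WT and 6.25% to 8.36% in TG, without overlap. A percentage depends also on the other members of the sum. The summed FPKM of all 17 was 145 ± 22.4 in WT and 141 ± 11.2 in TG, and the mean of Klf10 was 14.97 and 10.7 FPKM.

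**Figure D4:**
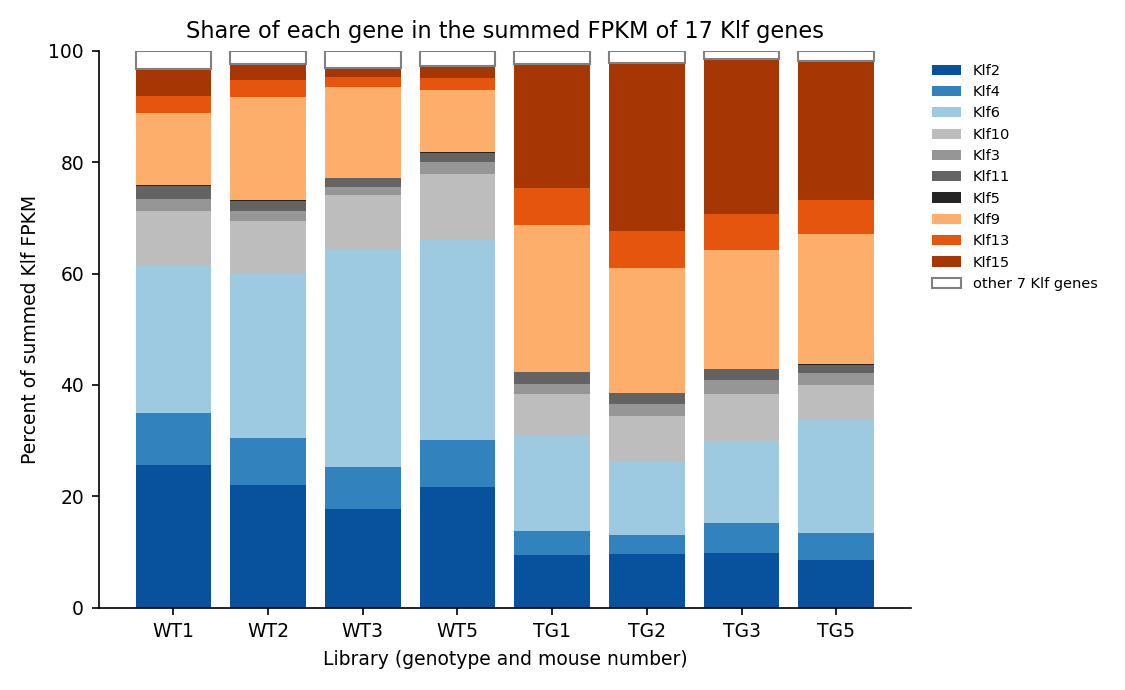
Percentage of the summed FPKM of 17 Klf genes taken by each of the 10 members and by the other 7 genes, 1 stacked bar per library (4 WT, 4 TG). The blue part, Klf2, Klf4 and Klf6, takes 60.0% to 66.0% in WT and 26.2% to 33.8% in TG, and the orange part, Klf9, Klf13 and Klf15, takes 15.5% to 24.5% and 54.3% to 59.4%.

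Ratios of members were also taken within each library. Klf15 stood at 0.0923 to 0.190 times the FPKM of Klf2 in WT and 2.33 to 3.12 times in TG. Klf9 stood at 0.313 to 0.630 times Klf6 in WT and 1.14 to 1.72 times in TG. Klf13 stood at 0.225 to 0.343 times Klf4 in WT and 1.17 to 1.94 times in TG. In these 3 pairs the order of the members was turned round in every TG library. Between members that were both higher, Klf15 stood at 0.1002 to 0.374 times Klf9 in WT and at 0.845 to 1.34 times in TG. Klf15 therefore gained on Klf9 within the libraries. These pairs were chosen after the values were seen, and no test was made on them.

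Of the 7 other Klf genes in the table only Klf7 and Klf16 passed the filter on low values. KLF7 is known as an inhibitor of adipocyte differentiation. Klf7 measured 0.543, 0.814, 0.916 and 1.49 FPKM in WT 1, 2, 3 and 5 and 0.423, 0.215, 0.199 and 0.258 FPKM in TG 1, 2, 3 and 5, a log2 change of -0.59 with an SE of 0.151 (adjusted p = 0.0108). The groups were apart, but Klf7 entered the test only through its WT values and fell under the filter when any WT library was left out. Klf16 measured 2.91 ± 0.593 FPKM in WT and 2.32 ± 0.548 FPKM in TG and was not called (log2 change -0.24, 95% interval -0.58 to 0.10). Klf1, Klf8, Klf12 and Klf14 reached at most 0.173 FPKM in any library, and Klf17 was listed at 0 in all 8.

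The Sp factors are the nearest relatives of the family and bind the same GC boxes. Of 9 Sp genes 4 were tested, and 3 were higher, 0 lower and 1 not called, with a median log2 change of 0.49; this and the counts that follow are to be read against the 44.1% of all genes called and the median of 0.01. Sp1, the ubiquitous founder of the group, measured 3.28, 3.21, 3.31 and 3.18 FPKM in WT 1, 2, 3 and 5 and 5.90, 5.30, 5.06 and 4.76 FPKM in TG 1, 2, 3 and 5. The groups were apart, and Sp1 rose by a log2 change of 0.56 with an SE of 0.0945 (adjusted p = 0.00125). Sp3 rose from 11.1 ± 0.780 to 16.3 ± 2.93 FPKM (log2 change 0.50, adjusted p = 0.0103), a call that ended without WT 2 and TG 5 (adjusted p = 0.0553). Sp2, whose groups overlapped, passed narrowly with 0.47 (adjusted p = 0.0483) and lost its call under 10 alternatives, and Sp4 measured 0.696 ± 0.489 and 0.971 ± 0.0388 FPKM and was not called. Sp5 and Sp6 were listed at 0, and Sp7, Sp8 and Sp9 had at most 5 reads in any library.

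Cofactors through which the family acts were called in both directions, with a split that depended on the scaling. Of 17 corepressors, acetyltransferases and enzymes that mark KLF protein for destruction, 5 were higher, 4 lower and 8 not called, with a median log2 change of 0.00. The acetyltransferase Kat2b rose by a log2 change of 0.78, the deacetylase Hdac1 by 0.71 and the corepressor scaffold Sin3a, which binds KLF9, KLF10, KLF11 and KLF13, by 0.80. Fbxw7, a ubiquitin ligase subunit that targets KLF2 and KLF5, fell by 0.62 on the log2 scale. On division by all recovered reads and on rescaling without abundant genes the calls were 8 higher and 1 lower, and without WT 2, WT 3, TG 1 or TG 2, each in turn, 5 higher and 2 lower.

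Glucocorticoids are known inducers of Klf9 and Klf15. Of 15 genes, the glucocorticoid receptor gene and genes it induces, 5 were higher, 4 lower and 6 not called, with a median log2 change of 0.08. Fkbp5, the receptor's co-chaperone, rose from 5.06 ± 0.640 to 20.02 ± 4.82 FPKM, Tsc22d3 from 17.4 ± 5.20 to 62.3 ± 8.33 FPKM and Zbtb16 from 2.25 ± 0.705 to 9.13 ± 2.62 FPKM. Their groups did not overlap, and their log2 changes were 1.77, 1.83 and 1.63 (adjusted p = 3.44e-05, 0.000128 and 0.000234). Pdk4, a mitochondrial kinase gene also under PPAR control, fell by 2.68 on the log2 scale, from 546 ± 205 to 82.7 ± 24.9 FPKM.

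Of 12 tested factors of the adipogenic cascade, in which several Kruppel-like factors are placed, 6 were higher, 2 lower and 4 not called, with a median log2 change of 0.23. Srebf1, a regulator of lipid synthesis, rose by a log2 change of 2.39, Zfp423, a preadipocyte factor, by 1.47 and Cebpa, a late factor that KLF9 and KLF15 are known to work with, by 1.45, from 181 ± 21.9 to 497 ± 58.5 FPKM. Cebpb, the early factor that KLF4 is known to induce, fell from 416 ± 226 to 128 ± 18.7 FPKM (log2 change -1.56, adjusted p = 0.00331), with no overlap. Gata2, the other lower factor, passed the filter only through its WT values and was not tested when any WT library was left out.

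Genes of amino acid breakdown and glucose uptake that are known to follow KLF15 included 10 tested members, of which 5 were higher, 0 lower and 5 not called, with a median log2 change of 0.40. Gpt2, a mitochondrial alanine aminotransferase, rose from 4.30 ± 0.671 to 15.3 ± 0.988 FPKM, a log2 change of 1.63 (adjusted p = 7.38e-06). Bcat2, the first enzyme of branched-chain amino acid breakdown, rose by 1.20, Prodh, the first enzyme of proline breakdown, by 0.91 and Aldh6a1, of valine breakdown, by 0.70. Slc2a4, the insulin-dependent glucose transporter, did not pass, at 56.8 ± 9.42 and 49.0 ± 2.998 FPKM. These genes are also expressed in adipocytes, whose markers were higher in TG, and the part of KLF15 in their levels was not tested. On division by all recovered reads and on rescaling without abundant genes 8 of the 10 were higher.

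The MEK5-ERK5-MEF2 pathway is known to induce Klf2 and Klf4 in endothelial cells. Of its 7 genes 2 were lower, 0 higher and 5 not called, with a median log2 change of -0.21. Mef2d and Mef2a fell by 0.66 and 0.65 on the log2 scale (adjusted p = 0.00171 and 0.00247), and neither passed on division by all recovered reads, where Map3k2 alone of the list was called, as higher.

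Of 7 tested endothelial genes that KLF2 and KLF4 are known to act on, 4 were lower, 2 higher and 1 not called, with a median log2 change of -1.51. Icam1, an adhesion molecule that KLF2 and KLF4 restrain, fell from 4.76 ± 1.26 to 0.767 ± 0.360 FPKM, and S1pr1, a lipid receptor that KLF2 induces, from 51.2 ± 21.4 to 11.0 ± 2.50 FPKM (log2 changes -1.70 and -2.08). Vcam1, another adhesion molecule, rose from 1.73 ± 0.405 to 5.14 ± 0.851 FPKM, a log2 change of 1.17. Nos3, which KLF2 induces, was the other gene that was higher, at 6.19 ± 3.06 and 11.0 ± 1.498 FPKM with overlapping groups (log2 change 0.82, adjusted p = 0.0214), a call lost under 6 alternatives; it was named after its values were seen. Genes known to be induced and genes known to be restrained by these factors were thus found among the lower and among the higher ones. Ptgds, 1 of the 4 lower genes, passed the filter only through its WT values and dropped out of the test when any WT library was left out. Hmox1, another of the 4, had a log2 change of -1.51, which is the list median. Its call was lost with quantile normalisation, on division by all recovered reads, and without WT 1, WT 3, TG 2 or TG 3, each in turn. Without WT 3 the calls in this list numbered 3 and its median was -0.77; without WT 5 the median was -0.93.

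Of 12 tested genes of the TGF-beta pathway, which is known to induce Klf10 and Klf11, 4 were lower, 1 higher and 7 not called, with a median log2 change of -0.43. The ligand gene Tgfb1 fell from 8.52 ± 2.72 to 2.77 ± 0.182 FPKM, a log2 change of -1.30 (adjusted p = 0.000321). The inhibitors Smad7, Skil and Tgif1, which the pathway induces as feedback, fell by 1.09, 0.86 and 0.71 on the log2 scale. On division by all recovered reads and on rescaling without abundant genes 3 were higher and 4 lower. The list medians were then -0.11 and -0.15, where all genes had 0.32 and 0.28. Ski, the 1 higher gene, lost its call with the replicate block and without WT 1, WT 2, WT 3, TG 1 or TG 2, each in turn.

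Klf9, Klf10 and Klf15 are known as outputs of the circadian clock. Of 17 tested clock genes 5 were higher, 3 lower and 9 not called, with a median log2 change of 0.20. The output gene Dbp rose from 14.1 ± 3.48 to 36.9 ± 8.28 FPKM, a log2 change of 1.33, and Rora rose by 0.78, while the repressor gene Cry1 and the output gene Hlf fell by 0.81 and 1.07 on the log2 scale. The sources used here do not give the time of day at which the tissue was taken. On division by all recovered reads 13 clock genes were called.

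**Figure D5:**
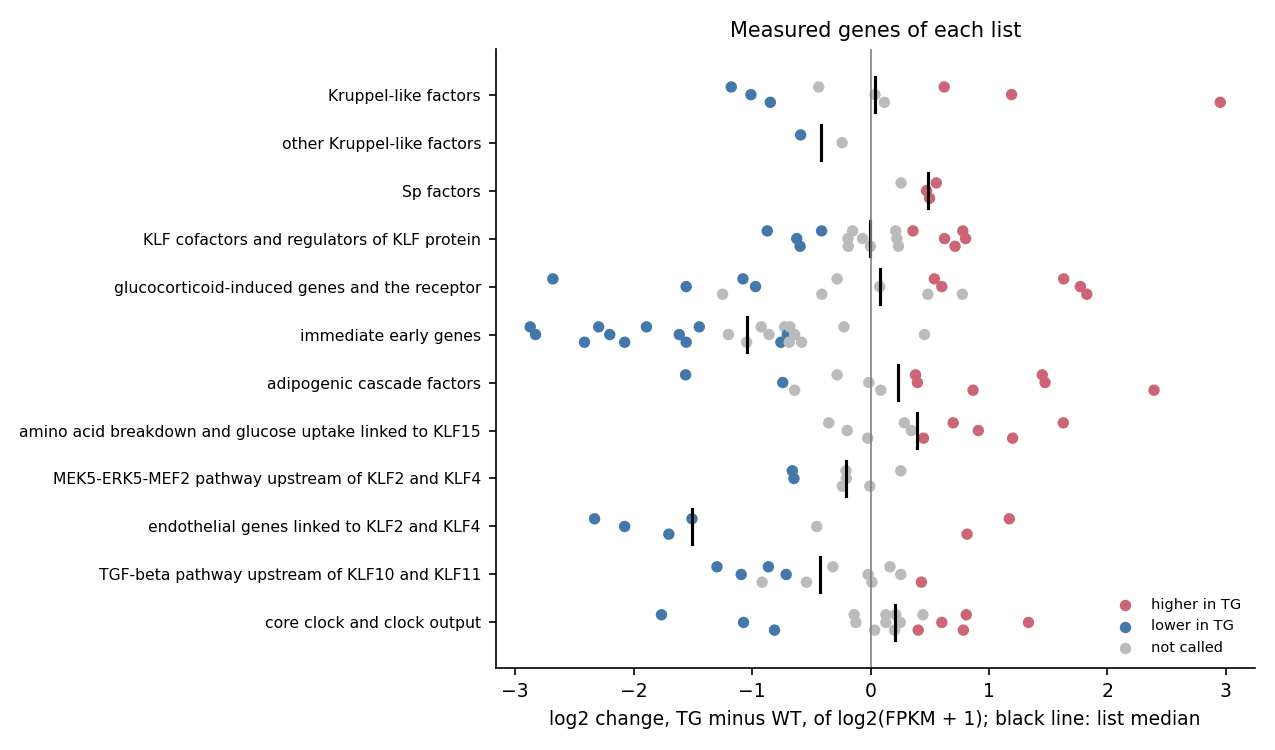
Log2 change (TG minus WT, of log2(FPKM + 1)) of each tested gene of the family and of the 11 related gene lists, 1 point per gene, coloured by its call, with a black line at the list median. The Kruppel-like factors spread from -1.18 to 2.95 around a median of 0.04, and the immediate early genes lie mostly on the left, with a median of -1.05.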

How the data were processed

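Brown adipose tissue RNA of 4 WT and 4 TG mice was sequenced from TRIzol extracts with an Illumina TruSeq kit, per the labels' protocols. Per the submitters' processing notes, reads passed through bcl2fastq, HISAT2 (2.0.5) and featureCounts (1.5.0-p3) with mm10 as the build, in an order not stated; the sources used here give no strand setting, annotation or batch. The authors deposited FPKM for 54532 genes, with coordinates and lengths. How their divisor per library was obtained is not given. FPKM times length was a whole multiple of 1 step per library (largest distance from a whole number 3.73e-09), which recovered the reads behind each value; they served for depth, alternatives and Klf5.

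limma (3.58.1, under R 4.3.3) compared the groups on log2(FPKM + 1) without covariates, by two-sided moderated tests from eBayes with trend. It was run on 12508 genes, those with 0.5 FPKM or more in no fewer than 4 libraries. P was adjusted over all of them (Benjamini-Hochberg, threshold 0.05), and no fold threshold was set. A count model was not the main test because the unit is FPKM. P-values measure the spread between these mice. The pseudocount of 1 understates changes of low genes. The procedure was tested on simulated data. Changes to 2 and 0.5 times the level were recovered in 54% and 56% of the changed genes. Changes to 4 and 0.25 times were recovered in 92% and 87.8%, and there were 13 false calls. In that test 11928 genes were used, with 50 changed at each of the levels 2, 0.5 and 4 and 49 at 0.25. In the mice 44.1% of the 12508 tested genes were called. Recovery and false calls at such a share were not tested. A gene that was not called may still differ.

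The members, gene lists and marker lists were chosen with earlier results of these data known, and the lists are described by counts and medians without a test. The named genes are all members, Clcf1, the other Klf and Sp genes, up to 4 genes with the lowest p per other list, up to 3 markers with the highest mean per marker list, and genes that overlap a member; others were named after their values were seen. Alternatives varied the pseudocount, filter, scaling, variance model, threshold, gene set, replicate block and libraries. Promoters came from RefSeq tables of GRCm38.p6 and figures from matplotlib 3.10.9. No sample was left out.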

Additional observations from a re-analysis of the deposited data

Results flagged for a closer look

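Klf3 in WT 5 stood apart from the other WT libraries, at 3.71 FPKM against 2.34 to 2.53 FPKM, a gap to its nearest neighbour of 0.863 of the whole WT range, above Dixon's limit for 4 samples. Of 20 groups of 4 values looked at, this was the 1 so marked, and chance marks about 1 in 20. Without WT 5 the log2 change of Klf3 was the highest of those that leave out 1 library, at 0.23.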

How the results depend on the processing

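Klf2, Klf4, Klf13, Klf15 and Clcf1 kept their direction and their call under each of the 24 alternatives run. With no filter on low values Klf9 had a log2 change of 0.62 (adjusted p = 0.0601), and leaving out 1 library at a time gave 0.48 to 0.73, with the call lost without WT 5 and without TG 1. For Klf6, division by all recovered reads gave -0.59 and rescaling without abundant genes -0.64, neither past the threshold; for Klf3 these 2 scalings gave 0.44 and 0.40, now past it, and for Klf11 the first gave 0.35. Klf10 passed with -0.44 at a filter of 5 FPKM, -0.44 among protein-coding genes alone and -0.47 with voom, and leaving out 1 library gave -0.54 to -0.31. Over all 24 alternatives the change of Klf10 came as near to 0 as -0.04. Klf11 turned to -0.024 without TG 1, the range on leaving out 1 library being -0.024 to 0.094. The untested change of Klf5, -0.11 at a pseudocount of 1, was -0.62 at 0.1 and -1.30 at 0.01.

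The number of genes called was 5513, 3148 with a filter of 5 FPKM and 3651 at an adjusted p of 0.01. With the filter of 5 FPKM, where fewer genes are tested, the lists had 1 Sp, 1 MEK5-ERK5-MEF2, 3 endothelial-linked, 2 TGF-beta and 4 clock genes called. Division by all recovered reads gave 8 KLF15-linked, 1 MEK5-ERK5-MEF2 and 13 clock genes, and rescaling without abundant genes 8 KLF15-linked genes. Leaving out 1 library gave 11 to 19 immediate early genes (19 without WT 1), 3 to 6 endothelial-linked genes and 0 to 1 of the other Klf genes, which numbered 0 also without WT 2 and TG 5. The cause of these shifts was not tested where no smaller number of genes or samples accounts for it.

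Mice of both groups carry the numbers 1, 2, 3 and 5, but the deviations of same-numbered libraries from their group means correlated at -0.19, -0.17, 0.04 and -0.24 across genes, so the numbers were not taken to pair them. With the replicate block 4847 genes were called and Klf9 had 0.62 (adjusted p = 0.0627).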

Other observations

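The 4 WT values of Klf11 lay closer together than counting alone would place them. They rest on 125 to 147 reads, for which counting error alone gives a coefficient of variation of 8.54%, and the coefficient observed was 0.654%. In TG, with 221 to 323 reads, counting gives 6.19% and 15.2% was observed. For the other tested members the spread between mice exceeded counting error in both groups; it was widest relative to counting in Klf6 of WT, at 31.4% against 1.94%. Klf15 was more variable in WT (31.7% against 8.51% from counting, 98 to 186 reads) than in TG (6.66% against 2.07%, 2215 to 2488 reads).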
